A study of Mus musculus with 6 samples.

Results

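The matrix metalloproteinases, the ADAM and ADAMTS proteases and the inhibitors that hold them in check were followed in immortalized proximal tubular cells of the mouse kidney after Glis2, a Gli-similar zinc finger transcription factor, had been lowered. The members were all genes whose annotated symbol begins with Mmp, Adam, Adamts, Adamtsl or Timp followed by a number, together with Reck. They came to 79 of the 19057 genes with a named probe, and each was represented by its brightest probe by mean over the 6 arrays. By class there were 15 secreted and 6 membrane-bound metalloproteinases, 32 ADAM, 17 ADAMTS and 4 ADAMTS-like genes, and 5 inhibitors.

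Matrix metalloproteinases are zinc enzymes that cut collagens, laminins and other matrix proteins. Most are secreted as inactive precursors, whereas the membrane-type enzymes act at the cell surface. ADAM proteins are membrane-anchored and release the outer part of growth factors, cytokines and adhesion proteins, and their ADAMTS relatives are secreted and act mainly on proteoglycans and fibrillar networks. TIMP proteins bind the active site of these enzymes, and in the kidney the balance between enzymes and inhibitors is known from work on tubular basement membrane turnover and fibrosis.

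The Control group consisted of 3 arrays of cells given a short hairpin RNA against GFP, and the Glis2KD group of 3 arrays of the same kind of cells given one against Glis2. All cells carried a strain background written C56BL/6 in the labels, were stably transduced by lentivirus and were harvested 7 days after infection. Nothing in the labels states that arrays of one group stem from independent infections, and the p-values therefore rest on a spread between arrays that may be purely technical. A fall in Glis2, an off-target action of its hairpin and a chance difference between the transduced populations cannot be told apart.

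Each value is a linear probe intensity that still contains background, and the number of arrays limits the precision. A background limit of 137 was placed 3 SDs above the most frequent intensity, 113, with the SD taken from the lower flank of the distribution. Probe intensities correlated at r = 0.995 between arrays of one group and at 0.980 to 0.982 between arrays of different groups, as a description across probes. Glis2 read 278, 234 and 230 in Control and 169, 161 and 176 in Glis2KD, a log2 fold change of -0.55 ± 0.092 (SE; limma's adjusted p = 6.32e-05). The groups did not overlap for the targeted gene, as for 32.3% of all genes. Averaging the 2 Glis2 probes gave a smaller log2 fold change of -0.45. Of 10 proximal tubule markers measured, 6 lay under the limit on all 6 arrays, among them Lrp2 and Slc34a1. Only Aqp1 and Mme of that list had a mean above it. Both fell in the knockdown, Aqp1 from 9760 ± 706 to 365 ± 101 and Mme from 855 ± 146 to 118 ± 5.08 (SD, n = 3), the latter under the limit on all 3 knockdown arrays. Of 7 kidney epithelium markers measured, Pax2 lay under the limit on all 6 arrays, and Epcam had a mean of 141, next to it. The epithelial keratins Krt8 and Krt18 and the cadherin Cdh1 lay above the limit on all arrays. In limma's fit the keratins rose by 0.57 and 0.40 on the log2 scale, while Cdh1 and the kidney cadherin Cdh16 had -0.38 and -1.41. Pax8 and Epcam had -0.21 and 0.03 and were not called. The part of these marker changes in the results below was not tested.

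In the knockdown the secreted enzymes Mmp13 and Mmp10, the membrane protease Adam17 and the inhibitor Timp1 were lower. The membrane-type Mmp14 and Mmp24, the secreted Mmp11 and Adamts7 and the membrane proteases Adam12 and Adam15 were higher. These 10 kept their calls under all 15 alternatives of the processing. Among those, quantile normalization and median centring could hardly alter arrays that already shared a distribution. Mmp12 was also called lower, but lost its call under 2 of the 15. Limma called 15 of the 79 members (19%) at an adjusted p under 0.05, 8 higher and 7 lower, whereas it called 22.5% of all genes, 11.2% higher and 11.4% lower. The share among the members was near that background. The median log2 fold change was 0.02 over the members and 0.004 over all genes. The groups did not overlap in 18 members (22.8%), against 32.3% of all genes. A change of at least 1.5-fold was called in 8 members (10.1%), against 7.32% of all genes.

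Most of the family was dim in these cells. Of the 79 members, 24 had a mean above the background limit, and the remaining 55 lay between 106 and 136. A gene that is bright in 1 group passes such a limit more easily when it differs, so counts among the 24 carry no weight beyond description. They held 13 of the 15 calls, and 43.1% of all genes above the limit were called. The other calls, of Mmp7 and Reck, concern probes at or under the limit and are given below with that restriction. In this mixed RNA from whole cultures, fewer cells expressing a gene and less RNA per cell cannot be told apart.

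**Figure D1:**
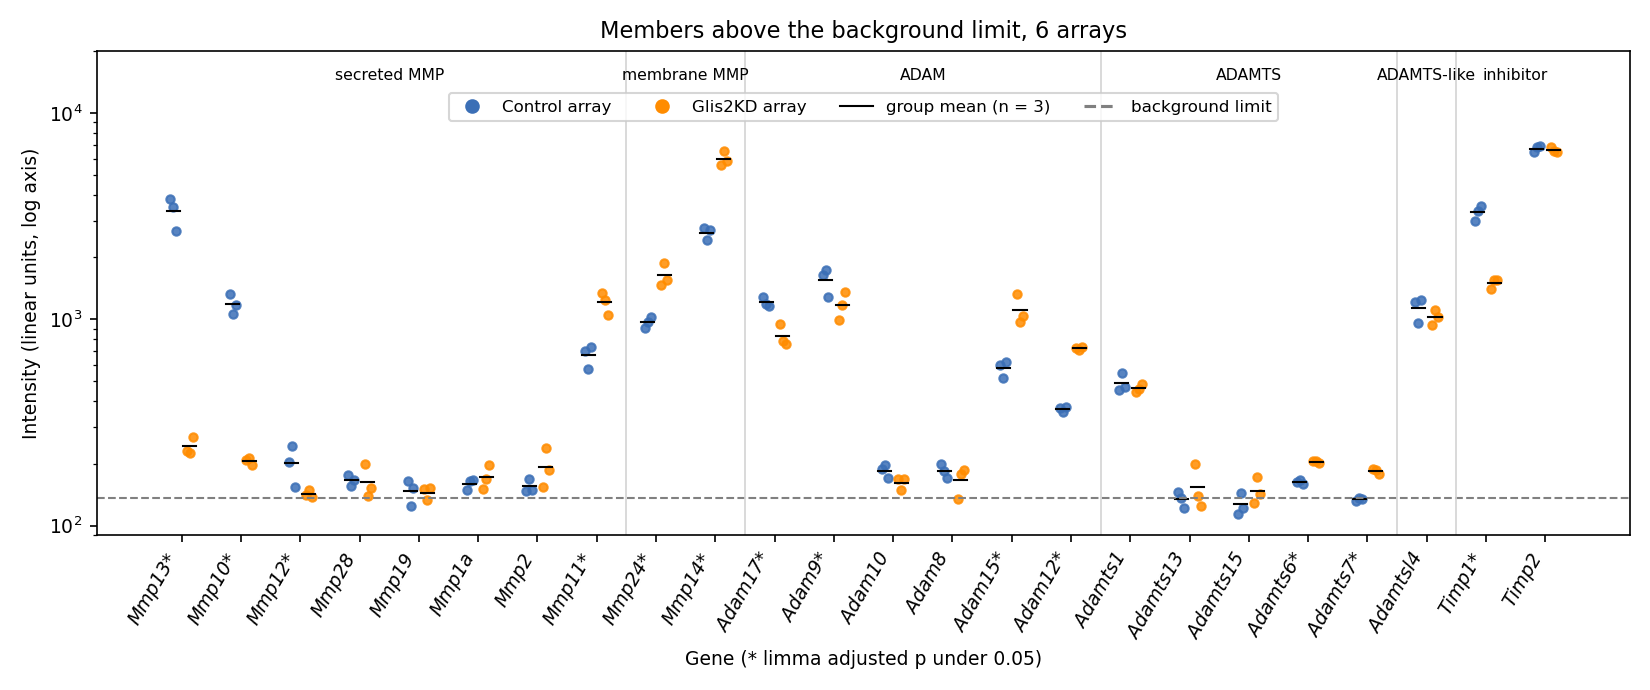
Intensity of the 24 members above the background limit on each of the 6 arrays, on a log axis, grouped by class, with bars at the group means (n = 3) and a dashed line at the limit of 137. Mmp13 and Mmp10 drop towards the line in Glis2KD, Mmp14 rises, and the Timp2 points of both groups coincide.

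Among the secreted metalloproteinases, limma called 4 of 15 lower, 1 of them (Mmp7) from values under the background limit, and 1 higher, and 10 were not called. The called share was 33.3%, against 22.5% of all genes, and 8 of the 15 lay above the limit, where 43.1% of genes were called. Mmp13, the main interstitial collagenase of rodents, read 3837, 3499 and 2664 in Control and 231, 226 and 270 in Glis2KD. Every knockdown array lay far below every control array but still above the background limit. The log2 fold change was -3.77 ± 0.11 (SE; limma's adjusted p = 9.52e-18). With background subtracted it became -4.64. A dimmer probe of the same gene also fell, from 318 ± 37.8 to 126 ± 22.5 (SD, n = 3), while the last of its probes, near background, read 135 ± 13.5 and 130 ± 4.18. Averaging all 3 probes gave -1.72.

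Mmp10, a stromelysin that cuts laminin, fibronectin and proteoglycans and can activate other metalloproteinases, read 1324, 1064 and 1167 in Control and 209, 213 and 198 in Glis2KD. The knockdown values lay close together and well apart from control. Its log2 fold change was -2.51 ± 0.093 (SE; limma's adjusted p = 5.63e-16), or -3.51 with background subtracted. Mmp12, the elastase named for its abundance in macrophages, read 203, 244 and 153 in Control and 141, 149 and 138 in Glis2KD. The lowest control array lay only just above the highest knockdown array, and all knockdown values were next to the background limit. The log2 fold change was -0.46 ± 0.12 (SE), with limma's adjusted p = 0.00448, and the call was lost without Control replicate 2 (adjusted p = 0.0574) and with background subtracted (log2 fold change -1.42, adjusted p = 0.185).

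Macrophage markers were checked beside Mmp12. Of 6 measured, 5 (Adgre1, Itgam, Lyz2, Ptprc and Tyrobp) lay under the background limit on all 6 arrays, and 1, the growth factor receptor Csf1r, rose from 187 ± 20 to 253 ± 31 (SD, n = 3). Their summed intensity ran from 736 to 791 over the control arrays and from 788 to 848 over the knockdown arrays, sums that are mostly background. The part of macrophages in the Mmp12 values was not tested.

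Mmp11, a stromelysin that furin can activate inside the cell, moved the other way. It read 701, 572 and 731 in Control and 1341, 1238 and 1051 in Glis2KD. The groups did not overlap, and the log2 fold change was 0.86 ± 0.10 (SE; limma's adjusted p = 7.96e-07). Mmp7, known as matrilysin, was called lower at -0.27 (limma's adjusted p = 0.0267), yet all 6 of its values, from 90 to 120, lay under the background limit, so no fold is given weight. Leaving out Control replicate 2 or 3, or Glis2KD replicate 1 or 3, ended the call, with adjusted p between 0.0597 and 0.131.

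The remaining secreted enzymes above the limit were not called. Mmp2, the gelatinase that membrane-type metalloproteinases activate, read 148, 168 and 149 in Control and 154, 238 and 185 in Glis2KD, a log2 fold change of 0.29 with a 95% interval from 0.053 to 0.53 and limma's adjusted p = 0.0774. Its groups overlapped through the first knockdown array. Mmp1a, a counterpart of interstitial collagenase, had 0.10 (95% interval -0.11 to 0.30), and its probes may not tell it from the closely related Mmp1b. Mmp19 and Mmp28 had -0.02 and -0.04, with intervals from -0.22 to 0.19 and from -0.27 to 0.18. The other 7 secreted members, Mmp7 included, had means between 106 and 134, under the limit. They include the gelatinase Mmp9 and the stromelysin Mmp3, named here after their values were seen.

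The secreted enzymes that fell, Mmp13, Mmp12 and Mmp10, belong with the dim Mmp7 to a run of 10 metalloproteinase genes on chromosome 9. In the RefSeq gene table (GRCm38.p6, used for gene order alone, since no source names the build of the array), no other protein-coding gene starts between the first and the last of them. The order is Mmp13, Mmp12, Mmp1b, Mmp3, Mmp1a, Mmp10, Mmp8, Mmp27, Mmp20 and Mmp7. Of the 9 measured genes, limma called 4 lower and 0 higher (also 0 at an unadjusted p under 0.05), and 4 lay above the background limit. Over all genes 11.4% were called lower, and 43.1% of those above the limit were called. With so few genes in the run these counts are a description. The 4 lower calls are those of Mmp13, Mmp12, Mmp10 and, under the limit, Mmp7. Mmp13 and Mmp10, with the largest changes, are separated by Mmp1a at 160 in Control and 172 in Glis2KD, and by Mmp1b, Mmp3 and Mmp12. Mmp3 lay under the limit in both groups, at 119 and 120, and Mmp8 likewise at 110 and 111. Outside the run, the nearest measured gene beside Mmp13, Dcun1d5, had 0.15 and was not called (adjusted p = 0.318), and the next, the ciliary dynein heavy chain Dync2h1, fell with -0.46 (limma's adjusted p = 4.53e-04). On the side of Mmp7 the nearest, Tmem123 and Birc2, had -0.09 and -0.22 and were not called.

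**Figure D2:**
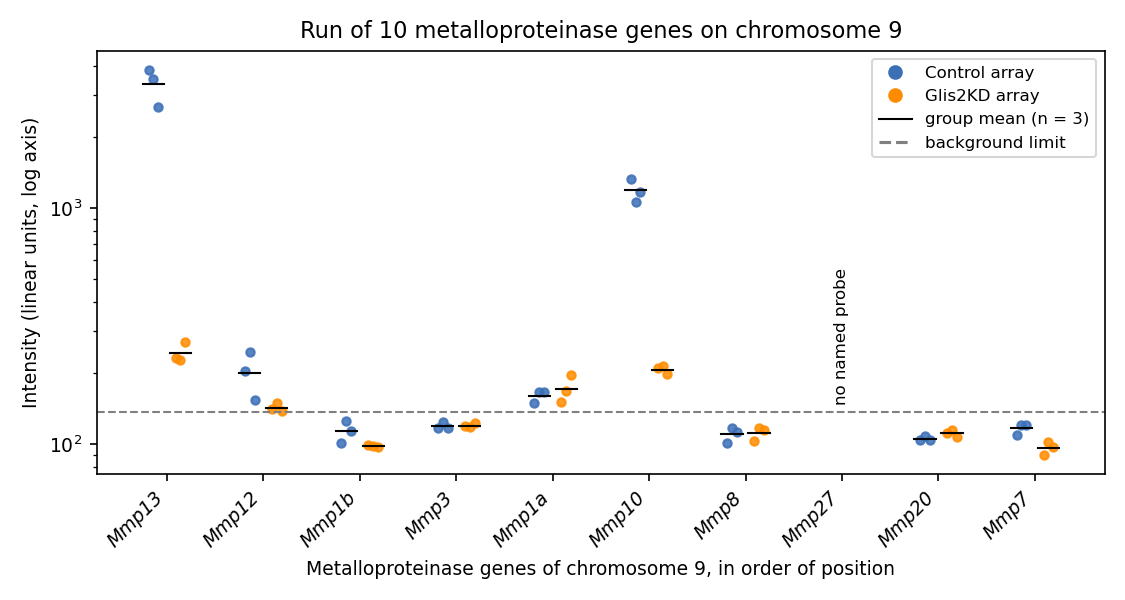
Intensity on a log axis of the metalloproteinase genes of chromosome 9 in order of position, with 3 points and a mean bar for each group and a dashed line at the background limit. Mmp13 and Mmp10 stand high in Control and near the line in Glis2KD. Mmp12 falls from a mean of 200 to 143, and the other genes between Mmp13 and Mmp10 lie under or near the line in both groups.

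Promoters of metalloproteinase genes are known for an AP-1 element close to a TATA box, and these letters were searched in the windows from 250 bases before to 50 after each RefSeq start site (GRCm38.p6). The windows of the 3 genes of the run that were above the limit and fell are printed with that of Mmp14, which rose, so that their layout can be compared. Capitals mark the AP-1 letters TGAGTCA or their reverse complement TGACTCA (which do not overlap the other motifs here), the TATA box letters TATAAA on either strand, and the Gli and Glis core GACCACCC or its reverse complement GGGTGGTC. All windows run 5′ to 3′ along the gene, and the window of Mmp12 is the one of its second listed start that holds matches.
Mmp13 (chr9:7272264-7272563, plus strand): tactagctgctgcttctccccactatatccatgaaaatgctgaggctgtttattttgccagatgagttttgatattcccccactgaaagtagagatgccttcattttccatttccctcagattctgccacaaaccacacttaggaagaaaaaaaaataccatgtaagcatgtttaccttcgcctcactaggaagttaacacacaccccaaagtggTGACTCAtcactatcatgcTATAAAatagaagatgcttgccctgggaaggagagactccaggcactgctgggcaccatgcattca
Mmp10 (chr9:7502092-7502391, plus strand): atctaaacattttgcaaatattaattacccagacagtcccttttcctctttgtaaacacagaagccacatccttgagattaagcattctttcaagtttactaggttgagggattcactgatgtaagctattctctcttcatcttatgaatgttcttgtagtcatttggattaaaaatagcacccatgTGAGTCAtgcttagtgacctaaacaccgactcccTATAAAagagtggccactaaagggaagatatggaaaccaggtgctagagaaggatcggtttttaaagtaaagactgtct
Mmp12 (chr9:7347124-7347423, plus strand): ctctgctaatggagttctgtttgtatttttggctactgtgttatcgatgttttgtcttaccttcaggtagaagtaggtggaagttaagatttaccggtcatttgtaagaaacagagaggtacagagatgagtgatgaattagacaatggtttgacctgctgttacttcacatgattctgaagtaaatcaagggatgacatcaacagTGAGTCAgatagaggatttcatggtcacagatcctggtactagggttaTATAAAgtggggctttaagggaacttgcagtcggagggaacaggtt
Mmp14 (chr14:54431348-54431647, plus strand): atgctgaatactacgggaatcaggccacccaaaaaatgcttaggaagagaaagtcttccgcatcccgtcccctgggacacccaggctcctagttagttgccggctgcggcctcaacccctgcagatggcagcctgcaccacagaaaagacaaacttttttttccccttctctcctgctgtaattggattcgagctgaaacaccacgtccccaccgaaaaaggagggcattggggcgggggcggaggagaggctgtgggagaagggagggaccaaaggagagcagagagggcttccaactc

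The AP-1 letters began 35 bases before the start site in Mmp13, 63 before it in Mmp10 and 44 before it in Mmp12. The TATA letters began 16 bases before the start in Mmp13 and 29 before it in Mmp10. In Mmp12 they lay 5 bases after the listed start. None of the 3 motifs is in the Mmp14 window. Of the 79 members, 49 had a window. The AP-1 letters were in 9 of the 49, against 5.95% of 27025 genes in the table, and 7 of those 9 are genes of the chromosome 9 run. Those 7 are Mmp13, Mmp12, Mmp10 and Mmp7, which were called lower, and Mmp1a, Mmp1b and Mmp3, which were not called. In Mmp1a, which lay above the limit, the AP-1 letters began 73 and the TATA letters 28 bases before the start. That is the same order as in Mmp13 and Mmp10. The TATA letters were in 16 of the 49, against 15.7% of genes. The Gli and Glis core was in 1 of the 49, against 0.932% of genes, and that member is Adam17, where it began 12 bases before the start. A match describes letters only.

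Of 6 membrane metalloproteinases, 2 rose and 4 were not called (33.3% called, against 22.5% of all genes), the latter with means between 108 and 121. Mmp14 encodes the collagenase that sits in the cell membrane and activates the precursor of MMP2 with TIMP2 as a bridge. It read 2766, 2410 and 2720 in Control and 5583, 6516 and 5867 in Glis2KD. The groups were far apart, with a log2 fold change of 1.19 ± 0.092 (SE; limma's adjusted p = 4.81e-10). A second Mmp14 probe lay near background at 121 ± 5 and 131 ± 19.7 (SD, n = 3) and was not called. Around Mmp14 on chromosome 14, 4 of the 10 nearest measured genes were called, 2 higher and 2 lower. All 10 lay above the background limit, where 43.1% of all genes were called, so that count is near the background share. Rem2, a small GTPase gene close by, rose with 1.03 (limma's adjusted p = 3.32e-09), whereas Lrp10, which lies between them, had -0.17 and was not called.

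Mmp24, a membrane-type enzyme best known from neurons, read 911, 968 and 1021 in Control and 1465, 1881 and 1549 in Glis2KD. All knockdown arrays exceeded all control arrays, with 0.75 ± 0.097 on the log2 scale (SE; limma's adjusted p = 1.96e-06). A second probe rose from 150 ± 17.7 to 470 ± 57 and another from 131 ± 4.73 to 241 ± 5.77 (SD, n = 3), and both were called in a fit over all probes, where limma called 15.6%. The remaining Mmp24 probe was under the limit.

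Of 32 ADAM genes, 2 rose, 2 fell and 28 were not called (12.5% called, against 22.5% of all genes), and 26 of the 32 lay under the background limit. Adam12, a meltrin that processes growth factor precursors and is known from mesenchymal cells, read 372, 357 and 376 in Control and 729, 706 and 733 in Glis2KD. The arrays of each group differed little, and the log2 fold change was 0.97 ± 0.084 (SE; limma's adjusted p = 3.30e-09). A second Adam12 probe lay under the limit by its mean, at 126 ± 8.44 and 127 ± 10.8 (SD, n = 3), and was not called. The mean of both probes gave 0.49. Adam15, an ADAM with an integrin-binding domain, read 597, 517 and 619 in Control and 1328, 971 and 1042 in Glis2KD. The groups did not overlap, although the first knockdown array stood above the other two. Its log2 fold change was 0.94 ± 0.11 (SE; limma's adjusted p = 2.70e-07). The other 4 Adam15 probes had means from 119 to 142, and 1 of them was called in the fit over all probes, rising from 122 ± 9.95 to 162 ± 6.37 (SD, n = 3). Averaging all 5 probes gave 0.31.

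Adam17, the sheddase of tumour necrosis factor and of several EGF receptor ligands, read 1287, 1189 and 1162 in Control and 951, 788 and 758 in Glis2KD. All knockdown arrays were lower, with -0.55 ± 0.095 on the log2 scale (SE; limma's adjusted p = 9.23e-05). A second Adam17 probe fell as well, from 321 ± 22 to 239 ± 36.4 (SD, n = 3). Adam9, a widely expressed meltrin, read 1633, 1737 and 1286 in Control and 987, 1174 and 1361 in Glis2KD. Here the groups overlapped, since the lowest control array lay below the highest knockdown array. The log2 fold change was -0.40 ± 0.12 (SE; limma's adjusted p = 0.0112). Leaving out Control replicate 1 or 2 or Glis2KD replicate 1 ended the call (adjusted p between 0.0587 and 0.102), as did the fit with background subtracted (adjusted p = 0.302).

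Adam10, the main sheddase of Notch and of cadherins, read 188, 196 and 171 in Control and 169, 148 and 168 in Glis2KD. Its groups did not overlap, but its log2 fold change of -0.20 (95% interval -0.38 to -0.01) was not called (limma's adjusted p = 0.146). Adam8, known mainly from leukocytes, had -0.16 (95% interval -0.38 to 0.06) with overlapping groups. The other 26 ADAM genes, many of them known from testis, lay under the background limit with means from 109 to 130, and limma called 0 of them (1 at an unadjusted p under 0.05), while log2 fold changes ran from -0.09 to 0.21.

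**Figure D3:**
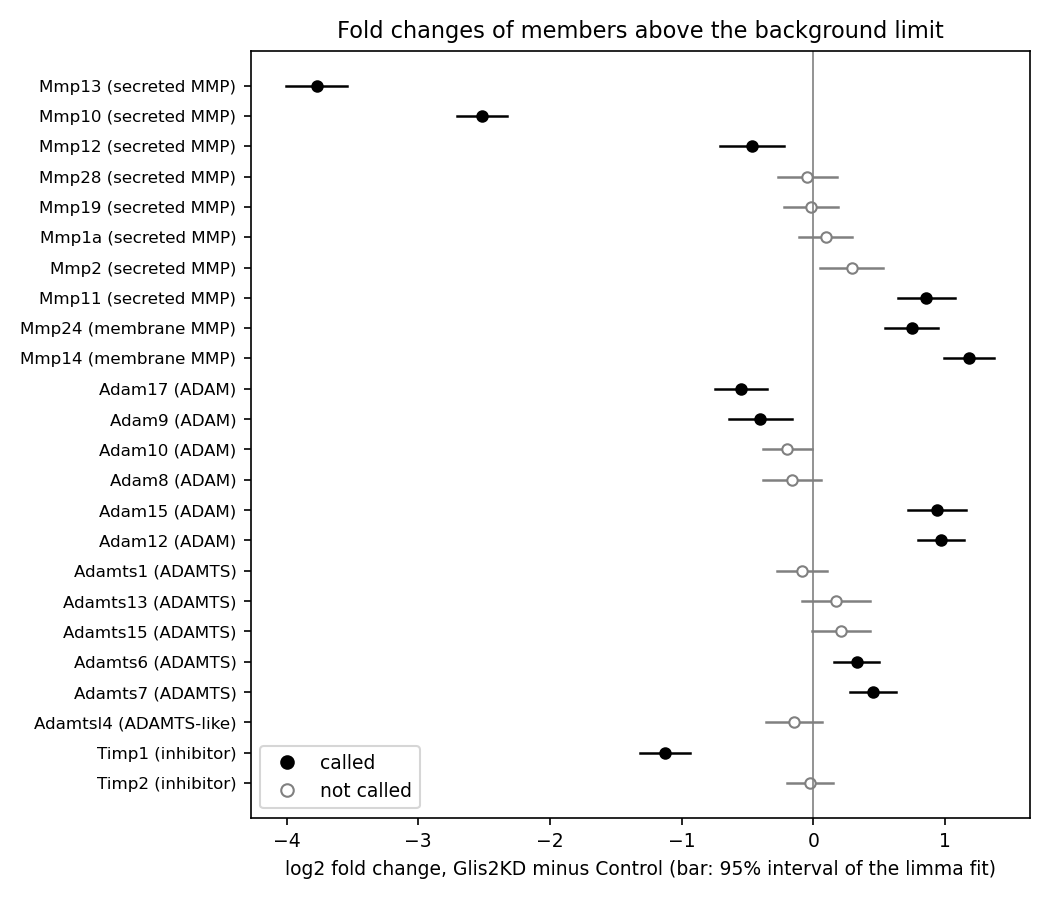
Log2 fold change, Glis2KD minus Control, of the 24 members above the background limit, with 95% intervals of the limma fit, filled where called and open where not. Mmp13 at -3.77 and Mmp10 at -2.51 lie far to the left of the rest, Timp1 at -1.13 follows, and Mmp14 at 1.19 lies farthest to the right.

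Among 17 ADAMTS genes, limma called 2 higher, 0 lower (1 at an unadjusted p under 0.05) and did not call 15. The called share was 11.8%, against 22.5% of all genes, and 12 of the 17 lay under the background limit. Adamts7, a protease of cartilage oligomeric matrix protein, read 132, 136 and 134 in Control and 188, 186 and 179 in Glis2KD. All control values were under the background limit, so the gene was at least 1.35-fold higher, with a fitted log2 fold change of 0.46 ± 0.084 (SE; limma's adjusted p = 1.77e-04). Adamts6, which acts on fibrillin microfibrils, read 162, 166 and 159 in Control and 205, 206 and 201 in Glis2KD. The groups were narrow and apart, with 0.33 ± 0.084 on the log2 scale (SE; limma's adjusted p = 0.00451). The other Adamts6 probes had -0.04 and 0.10 and were not called, and with the mean of its 3 probes the call was lost (0.13, adjusted p = 0.241).

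Adamts1, a protease of versican and aggrecan, read 456, 550 and 471 in Control and 445, 460 and 483 in Glis2KD. The groups overlapped, and the difference of -0.09 had a 95% interval from -0.28 to 0.10. Adamts13, the protease of von Willebrand factor, and Adamts15 had means next to the limit, and their log2 fold changes of 0.17 and 0.21 were not called. The other 12 ADAMTS genes had means from 106 to 130. Of the 4 ADAMTS-like genes, which lack the protease domain, 0 were called by limma, and 0 had an unadjusted p under 0.05. Among all genes 22.5% were called, and 3 of these 4 lay under the background limit. Adamtsl4, a fibrillin-binding protein, read 1214, 962 and 1234 in Control and 935, 1115 and 1021 in Glis2KD, a difference of -0.15 with a 95% interval from -0.36 to 0.06.

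Of 5 inhibitors measured, limma called 1 lower and 1 higher, the latter near background, and 3 were not called (40% called, against 22.5% of all genes). Only 2 of the 5, Timp1 and Timp2, had means above the background limit, so a movement of the class as a whole cannot be judged. Timp1, the inducible inhibitor, read 2991, 3335 and 3547 in Control and 1399, 1556 and 1558 in Glis2KD. Every knockdown array was below every control array, with a log2 fold change of -1.13 ± 0.091 (SE; limma's adjusted p = 1.09e-09). A second Timp1 probe fell alike, from 3083 ± 166 to 1369 ± 74 (SD, n = 3). Timp2, the inhibitor that also takes part in the activation of MMP2 at the cell surface, read 6432, 6835 and 6882 in Control and 6844, 6538 and 6445 in Glis2KD. The groups overlapped throughout, and the 95% interval of the difference ran from -0.20 to 0.15. Reck, a membrane-anchored inhibitor, was called higher at 0.25 (limma's adjusted p = 0.0453), but only 1 of its 6 values, 152 on a knockdown array, exceeded the background limit. Without Control replicate 2 or 3, or Glis2KD replicate 2 or 3, it was not called (adjusted p between 0.0556 and 0.242). Timp3 and Timp4 were under the limit by their means.

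Timp1 lies on the X chromosome beside genes of which several were also lower. Neighbours were planned only for the called members with the largest fold changes, Mmp13, Mmp10 and Mmp14. Those of Timp1 were added outside that plan. Of the 5 measured genes on each side, 10 in all, 4 were called, all lower, and 5 lay above the background limit. Over all genes 22.5% were called, 11.4% lower, and 43.1% of those above the limit were called. With so few neighbours these counts are a description. The protein kinase genes Cdk16 and Araf had log2 fold changes of -1.05 and -0.90 (limma's adjusted p = 9.85e-09 and 9.44e-07). Uxt and the complement factor properdin, Cfp, on the other side had -0.86 and -0.62 (limma's adjusted p = 6.59e-08 and 2.07e-05). The exception above the limit was Rbm10 at -0.06. Whether these neighbours and Timp1 fell through a shared change of the region was not tested.

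**Figure D4:**
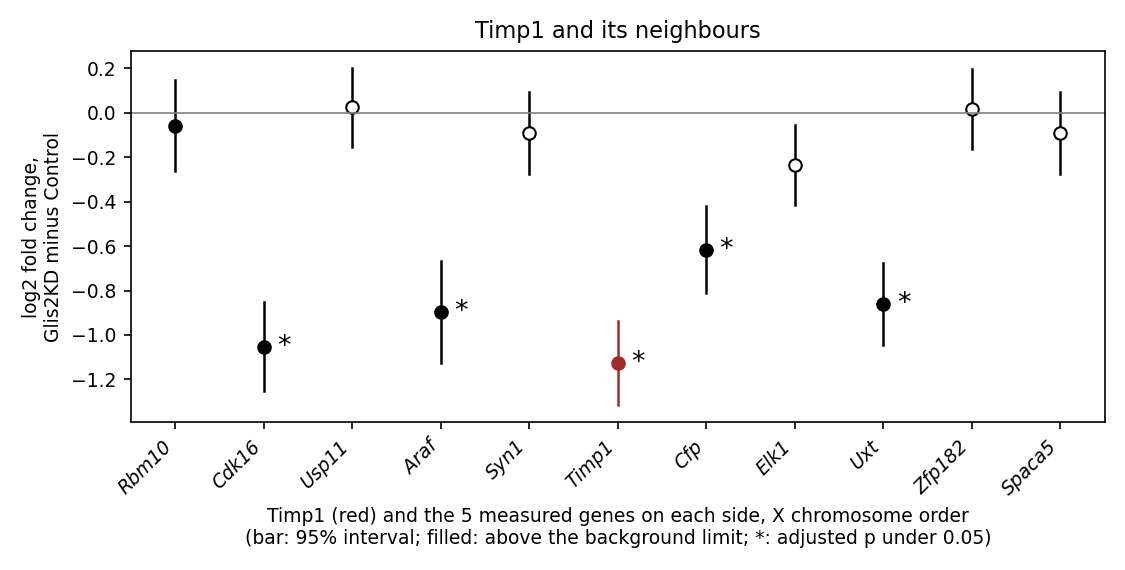
Log2 fold change with 95% interval of Timp1, in red, and of the 5 measured genes on each side in X chromosome order, filled where the gene is above the background limit and starred where called. Cdk16, Araf, Cfp and Uxt lie between -1.05 and -0.62 beside Timp1 at -1.13, and among the open symbols of genes under the limit Elk1 lies lowest, at -0.23 and not called.

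Genes that work with these proteases were read from the same fit, in lists chosen with earlier results of these data known. Their counts are to be read against the 22.5% of all genes, and the 43.1% of genes above the background limit, that limma called, and against the median of 0.004 over all genes. Of 25 activators and carriers of the proteases, 4 rose, 2 fell and 19 were not called (24% called), with a median log2 fold change of -0.003. Plau, the urokinase that generates plasmin, had -1.31 ± 0.092 and Pcolce, an enhancer of procollagen processing, -1.21 ± 0.11 (SE; limma's adjusted p = 9.48e-11 and 5.47e-09). The other plasminogen activator, Plat, rose from 283 ± 30.9 to 602 ± 63.5, and the urokinase receptor Plaur from 627 ± 117 to 1133 ± 54.1 (SD, n = 3). Furin, the convertase that activates MMP14 and MMP11 precursors, rose by 0.53 ± 0.097 (SE; limma's adjusted p = 1.59e-04) and is named after its value was seen.

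Among 14 further genes listed as protease inhibitors and measured, 2 rose, 3 fell and 9 were not called (35.7% called), with a median of -0.04. Wfdc2 and the cysteine protease inhibitor cystatin C, Cst3, had -0.70 ± 0.087 and -0.57 ± 0.092 (SE; limma's adjusted p = 8.85e-07 and 4.00e-05). Spint1, the membrane inhibitor of hepatocyte growth factor activator, had -0.42. The 2 that rose were the collagen chaperone Serpinh1, by 0.36, and a gene under the background limit by its mean. Only 2 genes of that list were called with background subtracted.

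Of 21 matrix proteins that the enzymes cut, 3 rose, 4 fell and 14 were not called (33.3% called), with a median of -0.01. Tenascin C, Tnc, rose from 139 ± 7.59 to 3356 ± 368 (SD, n = 3), with 2 of 3 control arrays under the background limit, and Col5a1 was at least 3.85-fold higher. Decorin, Dcn, and thrombospondin, Thbs1, had -0.98 ± 0.10 and -0.80 ± 0.096 (SE; limma's adjusted p = 6.00e-08 and 5.37e-07).

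Of 31 membrane proteins released by ADAM10 or ADAM17, 10 fell, 4 rose and 17 were not called, with a median of -0.07. The called share was 45.2%, and 23 of the 31, with all 14 calls among them, lay above the background limit, where 43.1% of genes were called. The receptor tyrosine kinase Axl, the chemokine Cx3cl1 and the adhesion protein Alcam had -3.05 ± 0.085, -1.33 ± 0.093 and -1.26 ± 0.11 (SE; limma's adjusted p = 3.34e-18, 8.67e-11 and 2.66e-09). The growth factor precursor Hbegf went the other way, from 944 ± 120 to 2417 ± 224 (SD, n = 3). The array measures transcripts, not release of these proteins.

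Transcription factors known to bind elements in metalloproteinase promoters rose in 6 of 17 cases and fell in 3, and 8 were not called, with a median of 0.08. The called share was 52.9%, and all 17 lay above the background limit, where 43.1% of genes were called. Cebpb fell from 5713 ± 689 to 1622 ± 32.8 and the early growth response factor Egr1 from 2627 ± 233 to 1277 ± 232 (SD, n = 3). The AP-1 subunits Jun and Fosl2 rose by 0.72 ± 0.099 and 0.50 ± 0.085 (SE; limma's adjusted p = 4.03e-06 and 7.87e-05). With background subtracted 5 genes of this list were called.

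Fibroblast markers, which could bear on Mmp14, Mmp11 and Adam12, were measured for 8 genes. Pdgfra, Pdgfrb, Thy1, Lum and Col3a1 lay under the background limit on all 6 arrays. Dcn fell, as given above, and Col1a2 was called higher with 1 of 6 arrays above the limit. The summed intensity of the list ran from 1072 to 1107 over the control arrays and from 950 to 998 over the knockdown arrays. Each value contains background, and 7 of the 8 markers had means under the limit, so these sums are mostly background. Without Dcn the other 7 markers summed to between 798 and 820 in Control and between 827 and 861 in Glis2KD, so the direction of the sum rests on that gene. The part of such cells in the protease values was not tested. Endothelial markers were called in 0 of 6 cases by limma (also 0 at an unadjusted p under 0.05), against 22.5% of all genes. Pecam1, Cdh5 and Emcn lay under the limit on all arrays, and Kdr and Tek by their means only. Eng had a mean of 160, above the limit, and a log2 fold change of 0.02.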

How the data were processed

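Total RNA was hybridised to an Illumina mouse bead array. The deposited values are linear intensities, 1 for each probe on each array; how the authors scanned and normalized them is not stated in any source at hand. Judged from the deposited intensity values, the 6 arrays already share a distribution (log2 medians differ by at most 0.00029) and background is included (lowest value 85.4). Values were floored at 16, which altered 0 values, and transformed to log2. Of 45281 probes, 34885 had 1 gene symbol, 18 several and 10378 none, and 34807 were matched by Entrez identifier to the RefSeq table (GRCm38.p6), changing 0 symbols. The brightest probe stood for each gene. The contrast Glis2KD minus Control was fitted with limma 3.58.1 under R 4.3.3 (lmFit, eBayes), with Benjamini-Hochberg adjustment over all 19057 genes at 0.05; the script was tested on simulated data. Every called member was named, with the uncalled members above the background limit, and up to 4 called genes of each related list by smallest p. Members and lists were chosen with earlier results of these data known. Alternatives were quantile normalization, a replicate block, centring on medians, background subtraction, normexp with an offset of 50, an offset of 50, a filter on dim probes, the mean of all probes, eBayes with trend and robust, and leaving out each array. The main fit did not pair samples by replicate number. Promoter windows are RefSeq's. Protein sequences were not used here.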

Additional observations from a re-analysis of the deposited data

How the results depend on the processing

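Of the 15 called members, 10 (Adam12, Adam15, Adam17, Adamts7, Mmp10, Mmp11, Mmp13, Mmp14, Mmp24 and Timp1) kept direction and call under all 15 alternatives, as did Glis2, whose log2 fold change ran from -1.26 to -0.44. Adam9, Adamts6, Mmp7, Mmp12 and Reck lost their call under at least 1, and 0 reversed. Quantile normalization and median centring were weak checks, since the arrays already shared a distribution, and each called 4291 genes like the main fit. The mean of all probes leaves the fold change of genes with 1 probe, such as Mmp10, as it was. With background subtracted, 2644 genes were called, 1318 higher and 1326 lower, against 4291, and 4 members were called lower in place of 7. The count was 2 in place of 5 for the further protease inhibitors and 5 in place of 9 for the transcription factors. Mmp7 had no value under this setting, since all its arrays were at the floor. The cause was not tested. Leaving out 1 array gave between 4 and 7 members lower, with 4 without Control replicate 2, and between 11 and 15 called. Deviations of same-numbered arrays of the groups correlated at -0.091, -0.039 and -0.037, and those of differently numbered arrays at -0.02 to 0.063. The values thus showed no pairing by replicate number. Whether same-numbered arrays were infected or processed together cannot be judged from these correlations. With the replicate block 4130 genes and 15 members were called, and Reck lost its call (limma's adjusted p = 0.0651) while Mmp2 gained one (0.0396). Intensities near 137 limit what can be said of the 55 dim members.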

Other observations

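A few members were called under an alternative only. Mmp2 had limma's adjusted p = 0.0439 when only genes above the background limit were fitted and 0.0046 without Glis2KD replicate 1, where its log2 fold change was 0.44. Adamts4, a protease of aggrecan, was called lower at -0.32 without Control replicate 3, Mmp1b lower at -0.29 without Control replicate 1, and Adam2, known from sperm, higher at 0.35 without Glis2KD replicate 2. The last 3 have probes under the background limit by their mean.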
